A study of Mus musculus with 12 samples.

Results

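Ribosome biogenesis factors are the proteins that make ribosomal RNA in the nucleolus, modify and cleave it, and fold it with ribosomal proteins into the small and large subunits. They were chosen here by gene symbol: those beginning with Nop, Nol, Utp or Rrp and a number, the RNA polymerase I subunits Polr1a to Polr1e, and Ncl, Npm1, Fbl, Dkc1, Bop1, Pes1, Ddx21, Rrs1 and Nob1. The rule found 51 of the 18194 genes measured, read by 113 probe sets. A gene was represented by its probe set with the highest mean over the arrays, and 35 of the 51 had more than 1 to choose from. The symbols also caught Nol3, Nol4 and Nol4l. Nol3 encodes an inhibitor of cell death that takes no part in making ribosomes, and no role in ribosome assembly is assigned here to Nol4 or Nol4l.

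RNA polymerase I copies the ribosomal DNA into 1 long precursor. Small nucleolar RNAs bound to core proteins then guide its methylation and pseudouridylation, the small subunit processome folds and cuts the part that becomes 18S rRNA, and a further set of factors matures the 5.8S and 28S parts. The pathway is costly for a cell, and its genes are known to follow nutrient supply, the kinase mTOR and the transcription factor Myc; the liver is a tissue in which ribosome content changes between fasting and feeding.

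Livers were profiled on Affymetrix mouse arrays from animals of a mixed SV129 and C57Bl/6 strain. The 12 arrays form 4 groups of 3: LG2KO livers after refeeding, LG2KO livers in the fasted state, control livers after refeeding and control livers in the fasted state. Each array held pooled RNA of 3 animals, so n = 3 pools per group and the p-values measure the spread between pools. LG2KO is not spelled out in the labels and is read here as a liver knockout of the glucose transporter Glut2, encoded by Slc2a2. LG2KO animals are labelled as given tamoxifen and control animals carry no such label, so genotype and tamoxifen cannot be told apart. The promoter of the recombinase, the age and sex of the animals and the lengths of fasting and refeeding are absent from the labels used here. For the fasted LG2KO arrays 1 label conflicts, since their source names read fasted and refed, whereas their titles and diet labels say fasted. The titles and diet labels were followed.

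Values are log2 expression, so a difference of 1 is a doubling, and differences below are given on that scale with their standard error from limma. A gene passed if its p, adjusted after Benjamini and Hochberg for the 18194 genes tested in a comparison, lay below 0.05. Slc2a2 was lower in LG2KO livers on every array, at 3.79, 3.64 and 3.80 after refeeding and 4.02, 4.13 and 3.56 in the fasted state. Control livers had 10.67, 11.30 and 10.90 after refeeding and 10.00, 11.08 and 10.82 in the fasted state. It fell by 6.97 ± 0.18 over both feeding states (limma, adjusted p = 5.00e-10). Control refed replicate 1 and LG2KO fasted replicate 3 stood apart from the other 10 arrays. On the second principal component, which held 28.1% of the variance, they lay at 37.1 and -31.4, while the others lay between -11.4 and 7.46. Counts of calls in the set that changed without this pair are given both ways. Control fasted replicate 3 carried exocrine pancreas transcripts, whose summed signal reached 2819 there and lay between 708 and 1029 in the other 3 groups. In whole liver, fewer cells of a type and less RNA per cell cannot be told apart.

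Refeeding changed 10 of the 51 genes when both genotypes were averaged. Rises were found for Nol12, Rrp12, Bop1, Polr1e, Nop56, Nop2, Fbl, Nop9 and Nop16, by 0.26 to 0.63, and Nop53 fell by 0.55 ± 0.05. The 10 are 19.6% of the set, while 13.6% of all genes passed. In the upward direction the shares were 17.6% of the set and 7.86% of all genes, and in the downward direction 1.96% and 5.77%. The median difference of the 51 genes was 0.09, against 0.00 for all genes. By signal, 45 of the 51 genes had a mean above the median of all genes. When only genes above that median were tested, 13 of 45 passed, or 28.9%, beside 29.8% of all such genes. The upward share was then 26.7% for the set and 17% for all such genes. In that fit the overall share of called genes was close to the background, with the upward share above it and the downward share, 2.22% beside 12.7%, below it. The fit was adjusted over its own 9097 genes and called 2709, against 2479 in the fit of all genes, so its shares rest on another threshold. Signal was not matched gene by gene, and these shares were not tested against each other.

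Among the 5 subunits of RNA polymerase I, Polr1e passed, as did 13.6% of all genes. It encodes a subunit that helps the enzyme engage at the ribosomal DNA promoter. Its level was 6.19, 6.18 and 6.00 in refed LG2KO livers, against 6.13, 6.38 and 6.25 in refed controls. In the fasted state Polr1e had 5.93, 5.89 and 5.40 in LG2KO, against 5.82, 5.45 and 5.60 in controls. All 6 refed arrays lay above all 6 fasted ones. The rise was 0.51 ± 0.11 (limma, adjusted p = 0.00823), and a further, dimmer probe set of the gene differed by 0.74 in the same direction. The name of the probe set used for Polr1e marks it as one whose probes can match other transcripts. The catalytic subunits did not pass, with Polr1a, the largest, at -0.17 ± 0.08 (adjusted p = 0.258) and Polr1b at 0.12 ± 0.10 (adjusted p = 0.561). Polr1c, shared with RNA polymerase III, was at 0.00 ± 0.09. Polr1d, also shared, was at 0.20 ± 0.08 (adjusted p = 0.119), but its other 3 probe sets, nearly as bright, differed by -0.30, -0.33 and -0.31. With the probe sets averaged Polr1d fell by 0.18 ± 0.05 (adjusted p = 0.042), so its direction depends on the probe set. Of the 18 genes of the set with a further probe set above the median signal, 6 had one that differed in the opposite direction on refeeding: Ddx21, Ncl, Nol9, Nop53, Polr1d and Utp23.

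Of the 5 core proteins of small nucleolar ribonucleoproteins in the set, Fbl and Nop56 rose, as did 7.86% of all genes. Fbl, fibrillarin, is the methyltransferase of the box C/D particles. It had 10.59, 10.58 and 10.60 in refed LG2KO livers, against 10.50, 10.69 and 10.73 in refed controls. Fasted LG2KO livers had 10.29, 10.23 and 10.26, and fasted controls had 10.38, 10.29 and 10.39. Refed and fasted arrays did not overlap, and the rise was 0.31 ± 0.05, or 1.24-fold (adjusted p = 0.00176). Fbl was among the least variable members, with a pooled SD of 0.07 within groups.

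Nop56, a scaffold of the same box C/D particles, rose by 0.44 ± 0.11 (adjusted p = 0.0149). In refed livers it had 7.95, 8.10 and 7.62 in LG2KO and 8.32, 8.27 and 8.20 in controls. In fasted livers it had 7.75, 7.88 and 7.40 in LG2KO and 7.69, 7.45 and 7.67 in controls. The LG2KO groups overlapped and the control groups did not. Its refeeding difference was 0.21 ± 0.15 in LG2KO (adjusted p = 0.552) and 0.66 ± 0.15 in control livers (adjusted p = 0.0197), but the interaction did not pass, at -0.44 ± 0.21 (adjusted p = 0.99). Nop58, the partner of Nop56, was at 0.22 ± 0.22 (adjusted p = 0.669). Nop58 was the dimmest gene of the set, at the 10.5 percentile of all genes, and its highest value, 4.51, came from control refed replicate 1. Dkc1 and Nop10, proteins of the box H/ACA particles, did not pass. Dkc1, the pseudouridine synthase dyskerin, was at 0.01 ± 0.24 (adjusted p = 0.992), and Nop10, its small partner, at 0.06 ± 0.06 (adjusted p = 0.694). Nhp2, a further core protein of those particles that the naming rule does not reach, rose by 0.43 ± 0.09 (adjusted p = 0.00662).

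**Figure D1:**
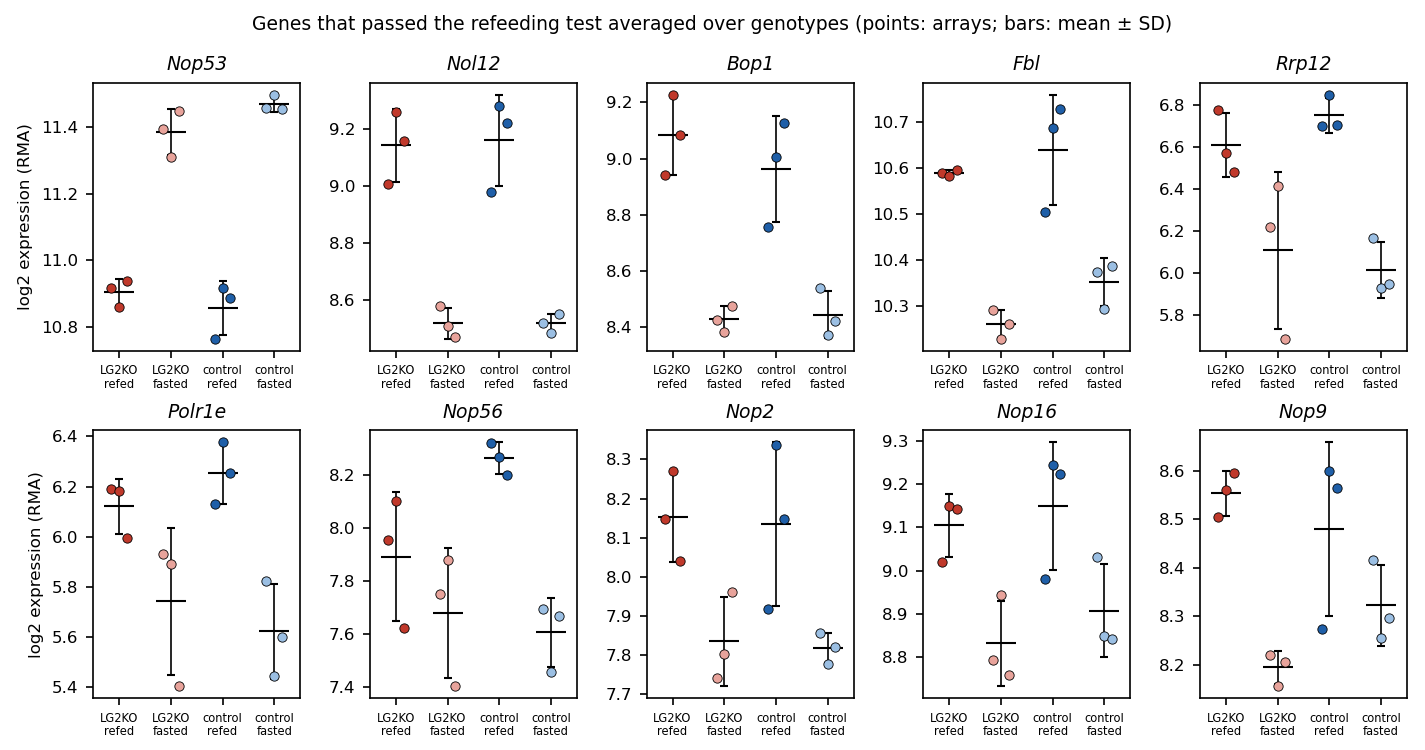
Log2 expression (vertical axes, which do not start at zero) on each array in the 4 groups for the 10 genes that passed the refeeding test averaged over genotypes. Points are arrays and bars are the mean ± SD of 3 pools: refed and fasted points do not overlap for Nop53, Nol12, Bop1, Fbl, Rrp12 and Polr1e, and overlap for Nop56, Nop2, Nop16 and Nop9. The genes were picked by the test on these same values, so the separation is no further support.

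Of the 22 small subunit factors, 2 rose, or 9.09%, close to the 7.86% of all genes, and none fell, beside 5.77%. Rrp12, a repeat protein needed in yeast for maturation and export of pre-ribosomes, rose by 0.62 ± 0.12, or 1.54-fold (adjusted p = 0.00395). It had 6.78, 6.57 and 6.48 in refed LG2KO livers, against 6.70, 6.85 and 6.71 in refed controls. Fasted values of Rrp12 were 6.22, 6.41 and 5.69 in LG2KO, against 6.17, 5.93 and 5.95 in controls. The refed arrays all lay above the fasted ones, by a small margin in LG2KO.

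Nop9, which in yeast binds the 18S precursor, rose by 0.26 ± 0.07 (adjusted p = 0.0363). It had 8.50, 8.56 and 8.60 in refed LG2KO livers, against 8.27, 8.60 and 8.56 in refed controls. After fasting Nop9 had 8.22, 8.16 and 8.21 in LG2KO, against 8.42, 8.26 and 8.30 in controls. The LG2KO groups did not overlap and the control groups did, with control refed replicate 1 low. Rrp9, a protein of the U3 particle that starts the processome, missed the threshold at 0.30 ± 0.09 (adjusted p = 0.0514). Without the arrays that stand apart it rose by 0.41 ± 0.07 (adjusted p = 0.00176). Utp6, at 0.51 ± 0.18, had the second largest difference of this role and did not pass (adjusted p = 0.0938), with fasted values from 5.43 on LG2KO replicate 3 to 6.43 on LG2KO replicate 1. Nob1, the nuclease that makes the final cut of 18S rRNA, was at 0.04 ± 0.08 (adjusted p = 0.847). The other factors of this role lay between -0.17 (Utp3) and 0.38 (Nol11).

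The 13 large subunit factors held the most calls, with 4 rises, or 30.8%, and 1 fall, or 7.69%, beside 7.86% and 5.77% of all genes. The roles were not tested against each other. Nol12, related to a yeast exonuclease that trims the large subunit rRNA, had 9.01, 9.26 and 9.16 in refed LG2KO livers, against 8.98, 9.28 and 9.22 in refed controls. Fasted LG2KO livers had 8.58, 8.51 and 8.47, and fasted controls had 8.52, 8.48 and 8.55. The gap between the lowest refed and the highest fasted array was wide beside the spread within groups, and the rise was 0.63 ± 0.07, or 1.55-fold (adjusted p = 9.38e-05). Bop1 forms a complex with Pes1 that is needed to process the 28S and 5.8S precursors. It had 8.94, 9.23 and 9.09 in refed LG2KO livers, against 8.75, 9.005 and 9.13 in refed controls. The fasted values of Bop1 were 8.42, 8.38 and 8.47 in LG2KO, against 8.54, 8.37 and 8.42 in controls. Refed arrays again lay above fasted ones, by 0.59 ± 0.08 or 1.5-fold (adjusted p = 0.000355). A dimmer probe set of Bop1 differed by -0.17, and with all probe sets averaged Bop1 did not pass (adjusted p = 0.0836). Pes1, the partner of Bop1 in that complex, was at -0.07 ± 0.08 (adjusted p = 0.679).

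Nop2, an rRNA cytosine methyltransferase, had 8.15, 8.27 and 8.04 in refed LG2KO livers, against 7.92, 8.34 and 8.15 in refed controls. Its fasted values were 7.74, 7.80 and 7.96 in LG2KO, against 7.86, 7.78 and 7.82 in controls. It rose by 0.32 ± 0.09 (adjusted p = 0.0263), with groups apart within each genotype but overlapping between them. Nop16, a nucleolar protein of the large subunit pathway, had 9.02, 9.15 and 9.14 in refed LG2KO livers, against 8.98, 9.25 and 9.22 in refed controls. Fasted LG2KO livers had 8.79, 8.94 and 8.76, and fasted controls had 9.03, 8.85 and 8.84. It rose by 0.26 ± 0.07 (adjusted p = 0.0352), and the control groups overlapped. With its probe sets averaged Nop16 was at 0.18 ± 0.07 and did not pass (adjusted p = 0.114).

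Nop53 moved the other way. In yeast it brings the RNA exosome to the large subunit precursor, and in mammals it is also known as a nucleolar regulator of p53. It had 10.92, 10.86 and 10.94 in refed LG2KO livers, against 10.76, 10.92 and 10.89 in refed controls. Nop53 in fasted livers was at 11.39, 11.31 and 11.45 in LG2KO, against 11.46, 11.50 and 11.45 in controls. Every refed array lay below every fasted array, and Nop53 fell by 0.55 ± 0.05, or 1.46-fold (adjusted p = 8.80e-06), the smallest adjusted p of the 51 genes in this comparison. A second bright probe set differed by -0.46 and a dimmer one by 0.12. Rrs1, which helps to install the 5S particle, was at -0.08 ± 0.10 (adjusted p = 0.741).

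The multifunctional nucleolar proteins did not pass, and they held the largest spread. Npm1, nucleophosmin, a histone and ribosome chaperone, had 7.53, 8.21 and 7.98 in refed LG2KO livers, against 9.23, 8.002 and 7.96 in refed controls. In fasted livers Npm1 had 9.60, 8.78 and 8.17 in LG2KO, against 8.60, 8.96 and 8.74 in controls. Control refed replicate 1 was higher and LG2KO fasted replicate 3 lower than the rest of their groups, and these are the arrays that stand apart. With all arrays the difference was -0.65 ± 0.26 (adjusted p = 0.138). Without that pair Npm1 fell by 1.03 ± 0.17 (adjusted p = 0.000849), the largest in size of the 51 genes in that fit. The pair held its highest refed and its lowest fasted value. Leaving the pair out therefore had to enlarge the fall, and gives no separate support for it. Ncl, nucleolin, which binds the ribosomal RNA precursor, was at -0.23 ± 0.19 (adjusted p = 0.566) and at -0.38 ± 0.20 (adjusted p = 0.192) without the pair. The helicase gene Ddx21 was at -0.02 ± 0.11 (adjusted p = 0.967). Of the genes caught by name alone, Nol3 was at 0.27 ± 0.11 (adjusted p = 0.167).

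Taking out both arrays that stand apart raised the number of genes that passed in the averaged comparison to 16, or 31.4%, beside 25.2% of all genes. In the set 12 rose, or 23.5%, and 4 fell, or 7.84%, beside 12.2% and 13% of all genes. The 10 genes above all passed. Nol3, Nol9 and Rrp9 also rose, and Npm1, Utp3 and Utp18 also fell. For Npm1, Utp3 and Utp18 the pair held the highest refed and the lowest fasted value, so leaving it out had to enlarge their falls. For Nol3, Nol9 and Rrp9 control refed replicate 1 was the lowest refed array. On leaving out each of the 12 arrays in turn, Bop1, Fbl, Nol12, Nop53, Nop56, Polr1e and Rrp12 passed every time. Nop2, Nop16 and Nop9 passed 4, 4 and 3 times. All 3 lost the call without control refed replicate 2 or 3, LG2KO refed replicate 2, control fasted replicate 2 or 3, or LG2KO fasted replicate 1. For Nop2 the adjusted p reached 0.074 in these fits.

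**Figure D2:**
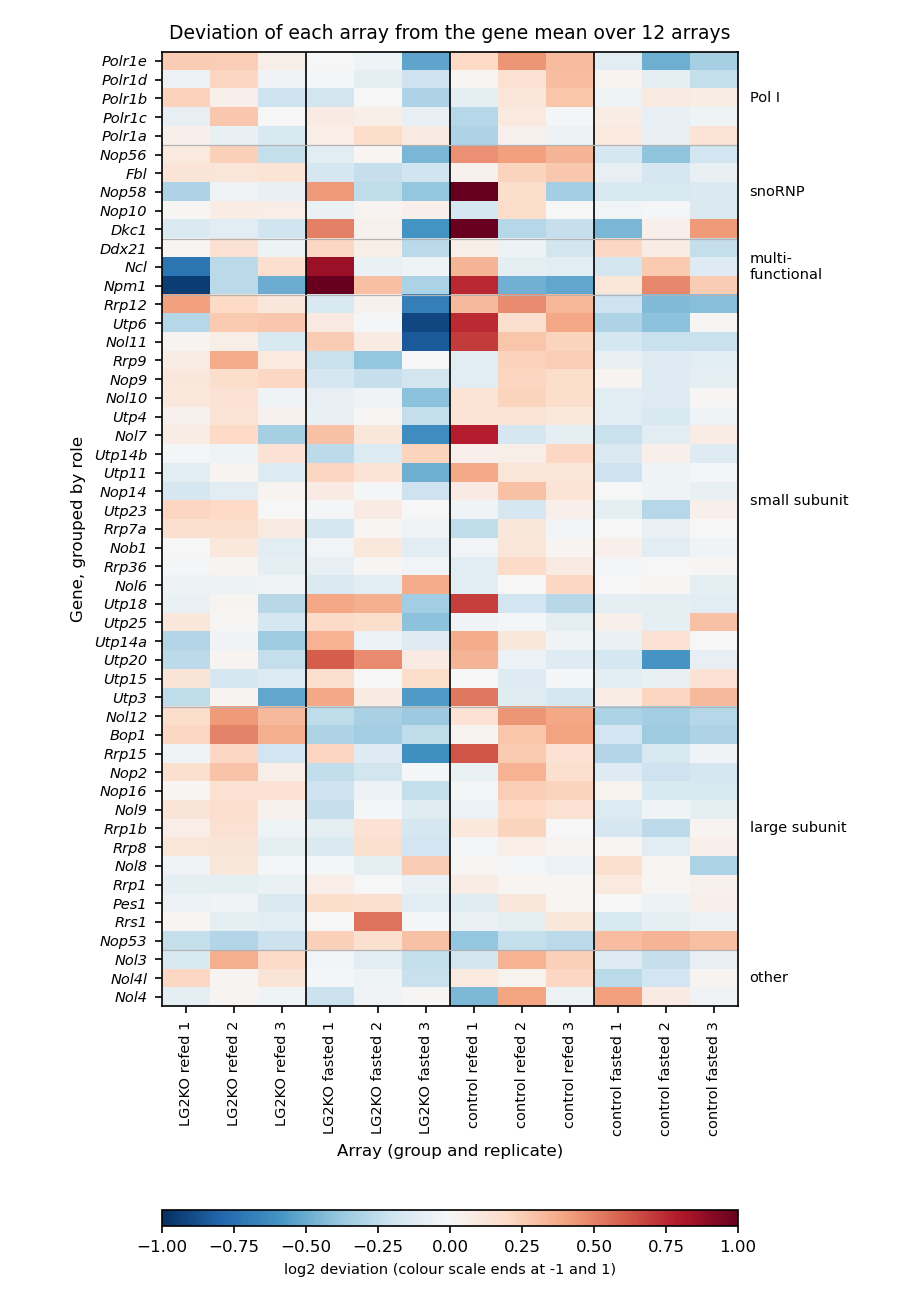
Deviation of each array (columns, by group and replicate) from the gene mean over 12 arrays on the log2 scale, for the 51 genes (in role order). Red is above and blue below the mean, with the colour scale ending at -1 and 1: LG2KO fasted replicate 3 is lowest for 22 genes, and control refed replicates 1 and 2 are highest for 11 and 13.

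Within the set, the highest and lowest values gathered on a few arrays. LG2KO fasted replicate 3 was the lowest array for 22 of the 51 genes, or 43.1%, and for 13.9% of all genes. Control refed replicate 1 was the highest for 11, or 21.6%, and for 12.9% of all genes. It was also the lowest for 7, or 13.7%, and for 23.9% of all genes. Control refed replicate 2, which did not stand apart, was the highest for 13, or 25.5%, and for 9.19% of all genes. The part of RNA quality or of cell content in these deviations was not tested. Marker sums on the arrays did not separate the feeding states for proliferating cells, which lay between 1062 and 1459 in refed LG2KO, 1215 and 1510 in refed control, 1378 and 1831 in fasted LG2KO and 1212 and 1384 in fasted control livers. Cholangiocyte sums did separate them in control livers, at 307 to 406 refed and 272 to 287 fasted, but not in LG2KO. Exocrine pancreas sums separated them in LG2KO livers, at 835 to 926 refed and 708 to 800 fasted, but not in control. Sums of the remaining lists overlapped between feeding states within each genotype. Of the 71 cell type markers measured 5 rose and 4 fell with refeeding, or 7.04% and 5.63%, beside 7.86% and 5.77% of all genes. Of the 13 proliferation markers Mcm5 rose by 1.16 ± 0.27, and Rrm2 and Birc5 fell by 1.10 ± 0.21 and 0.69 ± 0.14. Of the 5 cholangiocyte markers all differed upward and Krt19 passed, at 0.77 ± 0.23, a call lost without the arrays that stand apart. Cd68 of the macrophage list rose by 0.41 ± 0.12, Pdgfrb of the stellate cell list by 0.38 ± 0.08 and Cd79b of the lymphocyte list by 0.33 ± 0.10. Stab2, of the endothelial list, fell by 0.36 ± 0.07. Of the 6 hepatocyte markers 2 differed upward and 4 downward, with a median of -0.08, and Hnf4a passed, at -0.22 ± 0.06. Their part in the refeeding results was not tested.

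Each genotype was then taken alone, with background shares of 7.05% in LG2KO and 6.46% in control. In LG2KO livers 4 of the 51 genes passed, or 7.84%, which is close to the background. Bop1, Fbl and Nol12 rose, 5.88% of the set beside 4.66% of all genes. Nop53 fell, 1.96% beside 2.4%. In control livers 7 passed, or 13.7%. Bop1, Fbl, Nol12, Nop56, Polr1e and Rrp12 rose, 11.8% of the set beside 3.29% of all genes. Nop53 fell, 1.96% beside 3.17%. Nol12 rose by 0.62 ± 0.10 in LG2KO (adjusted p = 0.00304) and by 0.64 ± 0.10 in control (adjusted p = 0.00243). Bop1 rose by 0.66 ± 0.11 in LG2KO (adjusted p = 0.00421) and by 0.52 ± 0.11 in control (adjusted p = 0.0168). Nop53 fell by 0.48 ± 0.07 in LG2KO (adjusted p = 0.00088) and by 0.61 ± 0.07 in control (adjusted p = 0.00014). Fbl rose by 0.33 ± 0.07 in LG2KO (adjusted p = 0.0192) and by 0.29 ± 0.07 in control (adjusted p = 0.0393). Polr1e was at 0.38 ± 0.16 in LG2KO (adjusted p = 0.206) and rose by 0.63 ± 0.16 in control (adjusted p = 0.0297), and Rrp12 was at 0.50 ± 0.17 in LG2KO (adjusted p = 0.109) and rose by 0.74 ± 0.17 in control (adjusted p = 0.0209). That these genes passed in 1 genotype alone does not show a difference between genotypes, since none of the 51 passed the interaction. Nor does it show equality. In a simulation on the same design, with errors drawn independently for each gene, the interaction test found 11.9% of genes changed 1.5-fold. Removing 1 array of the control groups (control refed replicate 2 or 3, or control fasted replicate 2) left 2 of the 7 in control, Nol12 and Nop53, while removing control fasted replicate 3 left 3. Removing LG2KO fasted replicate 3 raised the LG2KO count to 7. Without both arrays that stand apart 10 genes passed in LG2KO, or 19.6%, beside 17.5% of all genes. In control 10 passed, or 19.6%, beside 12.1%. Fbl lost its call in LG2KO without any 1 of LG2KO refed replicates 1 to 3 or LG2KO fasted replicates 1 and 2 (adjusted p up to 0.0763). In control it passed in 2 of the 12 fits that left out 1 array each.

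**Figure D3:**
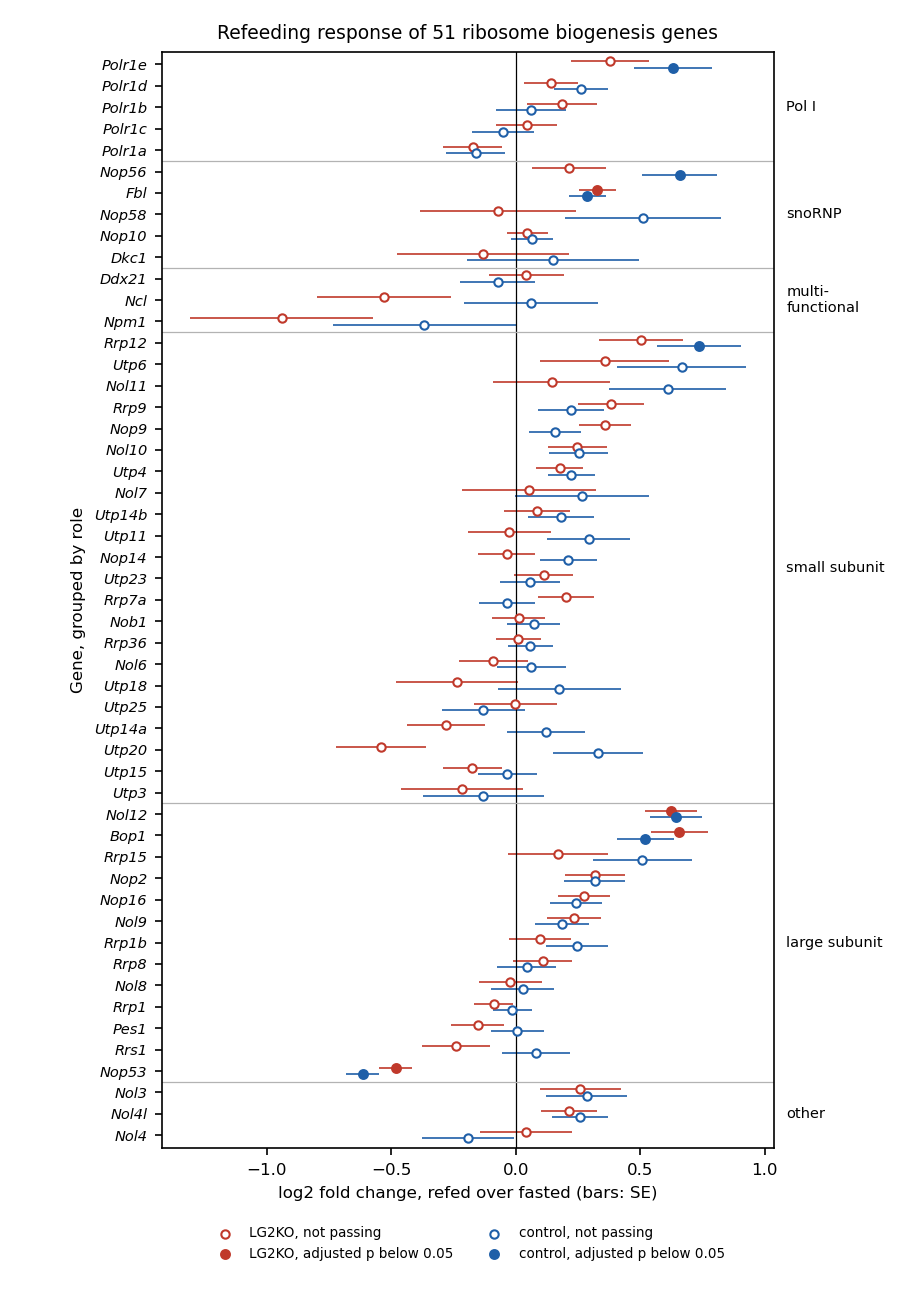
Log2 difference, refed minus fasted, of the 51 genes in LG2KO (red) and control (blue) livers on the horizontal axis, grouped by role on the vertical axis; bars are standard errors from the fit. Filled points passed the test: Bop1, Fbl and Nol12 lie right of zero and Nop53 left of it in both genotypes, and Nop56, Polr1e and Rrp12 are filled in control.

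The refeeding responses of the genotypes share no arrays. Their signs were equal for 35 of the 51 genes, 68.6%, beside 63.3% of all genes, and the differences correlated at r = 0.64 (Spearman's rho = 0.60, n = 51 genes measured on the same 12 arrays, which are not independent replicates). The median difference was 0.05 in LG2KO and 0.18 in control. The response was more positive in control for 35 of the 51 genes and for 8223 of the 18194 genes in all. These are descriptions, with no test.

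LG2KO against control gave no calls in the set, in either feeding state or averaged over both. After refeeding 0 of the 51 genes passed (limma; 0.379% of all genes passed). At an unadjusted p under 0.05, 3 were lower there (Nop14, Nop56 and Utp14a), or 5.88% beside 2.94% of all genes, and none was higher, beside 6.19% of all genes. In the fasted state 0 passed (background 0.396%), 1 was higher at an unadjusted p under 0.05, beside 2.58% of all genes, and none was lower, beside 2.62%. Averaged over feeding 0 passed (background 1.02%) and none reached an unadjusted p under 0.05, as 8.86% of all genes did. The interaction gave 0 (background 0.0055%). At an unadjusted p under 0.05 Utp20 alone was lower in it, beside 1.2% of all genes, and none was higher, beside 3.53%.

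Without the arrays that stand apart more genes reached that unadjusted threshold. In the interaction 10 of the 51 were then lower, meaning a less positive refeeding difference in LG2KO than in control: Nol11, Nop14, Nop56, Pes1, Polr1e, Rrp12, Rrs1, Utp11, Utp18 and Utp20. They are 19.6% of the set, beside 4.3% of all genes, while none was higher, beside 4.07%. None of the 10 passed after adjustment. The interaction was negative for 41 of the 51 genes in that fit and for 35 with all arrays. In the fasted state 7 were higher in LG2KO, or 13.7%, beside 7.06% of all genes, and none was lower, beside 6%. LG2KO fasted replicate 3, which was left out, was the lowest for 22 of the 51 genes, or 43.1%, beside 13.9% of all genes. Taken alone, leaving it out raises the fasted difference of those genes and lowers their interaction. Leaving out control refed replicate 1, the highest for 11 genes, or 21.6%, beside 12.9% of all genes, raises their interaction. The part of these removals in the shares was not tested. After refeeding 3 were lower, beside 4.69% of all genes, and none was higher, beside 5.3%. Averaged over feeding 2 were higher, beside 7.64%, and 1 was lower, beside 6.07%. With all arrays, the median LG2KO minus control difference of the 51 genes was -0.05 after refeeding, 0.02 in the fasted state and -0.02 averaged.

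**Figure D4:**
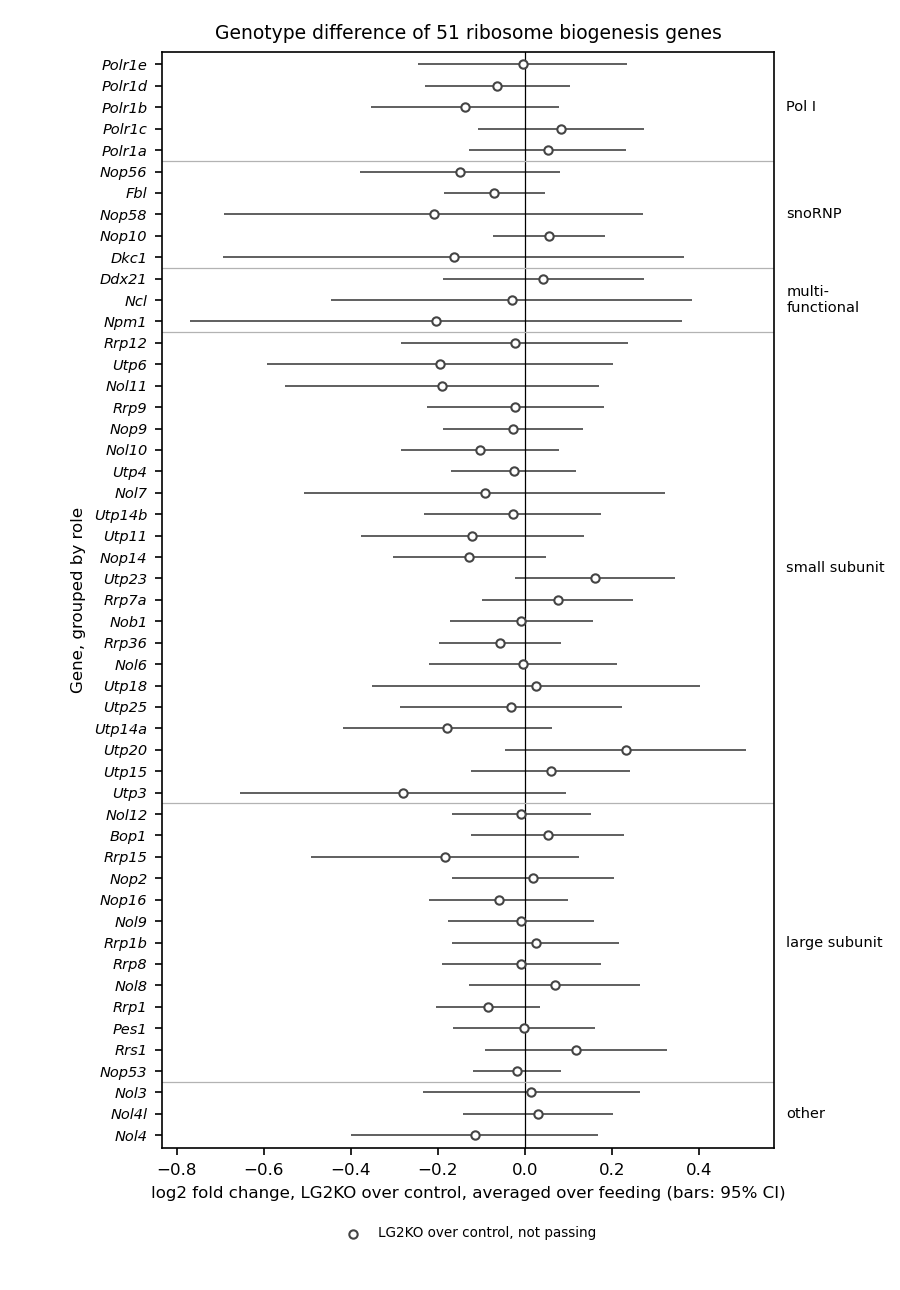
Log2 difference, LG2KO minus control, of the 51 genes averaged over feeding states (horizontal axis; bars are 95% confidence intervals), grouped by role on the vertical axis. Open points did not pass, as was the case for all 51: the intervals lie between -0.77 (Npm1) and 0.51 (Utp20) and each crosses zero.

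The confidence intervals limit what was seen rather than show equality. Averaged over feeding, every interval lay within -0.77 (Npm1) and 0.51 (Utp20). The furthest estimates were Utp3 at -0.28 and Utp20 at 0.23. Fbl was at -0.07 ± 0.05, Bop1 at 0.05 ± 0.08, Nop53 at -0.02 ± 0.05 and Nol12 at -0.01 ± 0.07, all under 0.1 in size. Among the snoRNP proteins Nop56 was at -0.15 ± 0.11, Nop58 at -0.21 ± 0.22 and Dkc1 at -0.16 ± 0.24. Npm1 was at -0.20 ± 0.26, Ncl at -0.03 ± 0.19 and Ddx21 at 0.04 ± 0.11. The polymerase subunits Polr1a and Polr1b were at 0.05 ± 0.08 and -0.14 ± 0.10, Pes1 at 0.00 ± 0.08, Rrs1 at 0.12 ± 0.10, Nob1 at -0.01 ± 0.08 and Nol3 at 0.01 ± 0.11. Without the arrays that stand apart the averaged difference changed sign for 19 of the 51 genes, and for 31.1% of all genes. Npm1 was then at 0.17 ± 0.17, Ncl at 0.12 ± 0.20, Dkc1 at 0.19 ± 0.15 and Nop58 at 0.09 ± 0.13, none of which passed, so no direction can be read for them. In a simulation on the same design, with errors drawn independently for each gene, 73.1% of genes changed 1.5-fold were found in this comparison. Deviations shared across genes, as on the arrays that stand apart, were not simulated, so the rate on the real arrays can differ.

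Utp20, a large scaffold of the small subunit processome, had the largest genotype difference of the set in the fasted state. There it had 8.46, 8.34 and 7.94 in LG2KO livers and 7.69, 7.27 and 7.78 in control livers. The groups did not overlap, and the difference was 0.67 ± 0.18, or 1.59-fold (adjusted p = 0.273). Without the arrays that stand apart it was higher in fasted LG2KO livers by 0.82 ± 0.15 (adjusted p = 0.038), which passed, as did 0.511% of all genes. After refeeding it had 7.60, 7.89 and 7.62 in LG2KO livers and 8.20, 7.80 and 7.73 in control livers, and these groups overlapped, at -0.21 ± 0.18 (adjusted p = 0.794). Its interaction was -0.87 ± 0.25 (adjusted p = 0.699), the largest in size of the 51 genes. The refed minus fasted difference was -0.54 ± 0.18 in LG2KO (adjusted p = 0.104) and 0.33 ± 0.18 in control (adjusted p = 0.418).

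For 39 of the 51 genes RefSeq lists the sequence before a transcript start (mouse build GRCm38.p6), among them 6 of the 10 that passed on refeeding. Windows of 250 bases were searched on both strands for CACGTG, the E-box bound by Myc and its relatives, and CCGGAAG, a core of sites for ETS factors. The first was in 6 of the 39 genes, 15.4%, beside 6.86% of the 27025 genes listed, and the second in 8, 20.5%, beside 7.83%. Of the 6 refeeding genes with an entry 1, Nop2, held each. Its window is shown with those of Nol12 and Polr1e, which rose more and hold neither, with matches in capitals. All run 5′ to 3′ on the + strand and end at the base before the start.
Nop2, chr6:125131633-125131882: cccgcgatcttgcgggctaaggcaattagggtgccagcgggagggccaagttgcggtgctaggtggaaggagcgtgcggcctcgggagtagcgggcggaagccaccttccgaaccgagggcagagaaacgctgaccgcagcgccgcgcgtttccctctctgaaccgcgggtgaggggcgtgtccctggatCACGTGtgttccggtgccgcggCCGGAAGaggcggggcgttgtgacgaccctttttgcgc
Nol12, chr15:78934683-78934932: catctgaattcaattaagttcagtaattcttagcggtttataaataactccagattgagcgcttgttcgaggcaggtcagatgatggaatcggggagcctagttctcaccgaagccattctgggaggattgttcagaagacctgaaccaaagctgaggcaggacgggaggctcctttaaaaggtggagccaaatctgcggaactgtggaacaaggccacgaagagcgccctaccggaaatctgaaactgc
Polr1e, chr4:45018359-45018608: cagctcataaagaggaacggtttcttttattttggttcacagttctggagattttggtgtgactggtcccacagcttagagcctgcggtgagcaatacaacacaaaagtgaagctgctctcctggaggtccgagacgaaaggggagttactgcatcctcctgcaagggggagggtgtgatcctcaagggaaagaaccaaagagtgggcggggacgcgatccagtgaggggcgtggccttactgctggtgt
In the Nop2 window CACGTG begins 60 and CCGGAAG 38 bases before the start. Its GC content was 67.6% with 30 CpG pairs, against 48.8% with 10 for Nol12 and 53.2% with 8 for Polr1e. The Nol12 window holds CCGGAAG short of its final G, which the search did not count. The shares of genes with a match were not matched for base content or signal. A match is only a run of letters, and binding was not measured.

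Other genes of the pathway, which the naming rule does not reach, behaved in a mixed way on refeeding averaged over genotypes, where 7.86% of all genes rose and 5.77% fell. Of 36 further small subunit processome genes 9 rose and 3 fell, with a median of 0.01. Bysl, which joins late small subunit precursors, rose by 0.76 ± 0.09 (adjusted p = 0.000104) and the helicase Dhx37, which helps to take the processome apart, rose by 0.83 ± 0.13 (adjusted p = 0.000705). Ddx49, another helicase, rose by 0.45 ± 0.07 (adjusted p = 0.0014) but did not pass with its probe sets averaged, and Emg1, an 18S rRNA methyltransferase, by 0.32 ± 0.06 (adjusted p = 0.00245). Of 46 further large subunit genes 4 rose and none fell, led by Wdr74 at 0.60 ± 0.09 (adjusted p = 0.000802) and the helicase Ddx56 at 0.45 ± 0.08 (adjusted p = 0.00313). Of 16 genes of the RNA exosome and rRNA trimming 6 rose, led by the exosome subunit Exosc4 at 0.49 ± 0.07 (adjusted p = 0.000622). Of 10 partners in the snoRNA particles 3 rose, namely Nhp2, described above, and the assembly helicases Ruvbl1 and Ruvbl2, by 0.40 to 0.43. Of 15 further polymerase I genes 1 rose, Znrd1, a subunit of the enzyme, at 0.34 ± 0.07 (adjusted p = 0.00632). Of these 123 genes together 23 rose, or 18.7%, and 3 fell, or 2.44%, beside 7.86% and 5.77% of all genes. Without the arrays that stand apart 29 rose, or 23.6%, and 23 fell, or 18.7%, beside 12.2% and 13% of all genes. In the genotype comparisons 0 of the 123 passed, beside 0.379% of all genes after refeeding, 0.396% in the fasted state and 1.02% averaged over feeding. After refeeding 34 of the 123 differed upward in LG2KO and 89 downward, with a median of -0.13, beside 0.02 for all genes. In the fasted state 65 differed upward and 58 downward. Averaged over feeding 6 were lower at an unadjusted p under 0.05 and none was higher. These directions were not tested.

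Of 19 Myc relatives and growth regulators 3 rose, or 15.8%, and 8 fell, or 42.1%, on refeeding averaged over genotypes, beside 7.86% and 5.77% of all genes. Myc itself had 6.26, 6.55 and 6.88 in refed LG2KO livers, against 6.68, 6.38 and 6.46 in refed controls. Fasted LG2KO livers had 7.85, 7.70 and 8.37, and fasted controls had 7.32, 7.97 and 6.88. The highest refed and the lowest fasted array were both at 6.88, and Myc fell by 1.14 ± 0.18 (adjusted p = 0.00102). Mycl, its relative, fell by 1.21 ± 0.11 (adjusted p = 1.98e-05), and Eif4ebp1, a brake on translation under mTOR, fell by 0.64 ± 0.10 (adjusted p = 0.000683). Mlx, a partner of the glucose-responsive factor ChREBP, rose by 0.54 ± 0.08 (adjusted p = 0.000682). Mycl was also the 1 gene of this list that passed between genotypes. Averaged over feeding it was higher in LG2KO livers by 0.70 ± 0.11 (adjusted p = 0.0126), and by 0.64 ± 0.12 (adjusted p = 0.034) without the arrays that stand apart. In the fasted state it was higher in LG2KO by 0.95 ± 0.16 (adjusted p = 0.0263), but at 0.90 ± 0.17 without that pair it did not pass (adjusted p = 0.0527). That call was also lost without any 1 of control fasted replicates 2 and 3 or LG2KO fasted replicates 2 and 3 (adjusted p up to 0.149). Myc was at 0.58 ± 0.26 in the fasted state (adjusted p = 0.925).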

How the data were processed

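Liver RNA was measured on 12 arrays in 4 groups of 3, each array holding a pool of 3 animals. The deposited values are log2 expression per probe set, made by the authors with RMA per the submitters' processing notes; RMA corrects background, equalises the distributions of the arrays and summarises probes, so differences are relative to the bulk of genes. Software, version and genome build: not given in the sources used here. Of 45101 probe sets 34958 had 1 gene symbol in the platform annotation and were used, 932 had several and 9211 were not listed. The probe set with the highest mean stood for each of 18194 genes.

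All genes were fitted with limma 3.58.1 (R 4.3.3): group means over all 12 arrays, 8 residual degrees of freedom, moderated variances with an intensity trend, two-sided tests and Benjamini-Hochberg adjustment per comparison, in 7 comparisons. No dim gene was left out, and precision is limited by there being 12 arrays. On simulated data with 200 altered genes the refeeding test averaged over genotypes found 71.6% of those changed 1.5-fold, with 13 false calls. The simulated errors were independent between genes, without the shared deviations of the arrays that stand apart. Alternatives were 9 settings and leaving out each of the 12 arrays.

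Every gene of the set may be named, and values per array are given for those that passed; those of Npm1 and Utp20 were added after they were seen. Ncl, Npm1, Fbl, Dkc1, Bop1, Pes1, Ddx21, Rrs1, Nob1, Polr1a, Polr1b, Nop56, Nop58 and Nol3 are named whether or not they passed. Other genes named are Slc2a2, Myc, and up to 4 of each pathway list with the smallest adjusted p. Hnf4a, and the values of Rrm2 by genotype, were singled out after they were seen. The genes and lists were chosen with earlier results of these data known.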

Additional observations from a re-analysis of the deposited data

How the results depend on the processing

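The counts of the 51 genes that passed moved with the weight given to the 2 arrays that stand apart, and in control also with single other arrays. For refeeding averaged over genotypes, 10 as reported, the count was 18 with array weights and 16 without that pair. For refeeding in LG2KO, 4 as reported, it was 10 in both settings. For refeeding in control, 7 as reported, it was 11 with array weights, 10 without the pair and 4 with only the groups compared in the fit. For the genotype difference in fasted livers, 0 as reported, it was 1 with array weights and 1 without the pair, Utp20 each time. The cause was not tested. With single arrays left out in turn the counts ranged from 7 to 15 for refeeding averaged over genotypes, 3 to 7 in LG2KO and 2 to 8 in control, and the 4 genotype and interaction counts were 0 throughout. With the replicate number as a block the counts were 9, 4 and 6 for refeeding averaged (Nop9 lost), in LG2KO and in control (Fbl lost), and 0 for the other comparisons. Arrays with the same number deviated together at a correlation above 0.1 in 6 of 18 pairs (range -0.46 to 0.77). The 2 arrays that stand apart correlated at -0.81 and enter the other values through their group means. Whether the numbers pair the samples therefore cannot be told from these correlations. Among the differences of all 51 genes recomputed under these settings, 67 lost a call, 58 gained one and no called one reversed. Polr1d, not passing on refeeding as reported, reversed to -0.18 and passed with the mean of all probe sets, the other 3 of its probe sets having the opposite sign. A further 80 that did not pass changed sign by more than their standard error. Dim signal limits Nop58, and 3 pools per group limit every comparison.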

Other observations

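The genes of the set varied within groups about as much as genes in general, with a median pooled SD of 0.15 on the log2 scale beside 0.16 for all genes. Npm1 (0.55), Dkc1 (0.51), Nop58 (0.47), Nol7 (0.39) and Ncl (0.39) varied most, and Rrp1 (0.04) varied least. Dkc1 reached 7.10 on control refed replicate 1, where the other refed arrays lay between 5.83 and 6.00, and Nol7 reached 9.54 there, beside 8.42 to 8.95 on the other refed arrays.

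The 10 genes that passed on refeeding have 8 further probe sets, of which 6 differed in the same direction. Of the 4 with a mean signal above the median of all genes, 3 did so.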
